A study of Homo sapiens with 6 samples.

Results

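The thioredoxin and peroxiredoxin system was followed through 10 genes chosen by name, with earlier results of these data known. These 10 were taken from 19970 protein-coding genes of RefSeq on chromosomes 1 to 22 and X. They encode thioredoxin (TXN), the thioredoxin reductases (TXNRD1, TXNRD2 and TXNRD3), sulfiredoxin (SRXN1), the peroxiredoxins PRDX1 and PRDX6, the thioredoxin inhibitor TXNIP, and the stress-response proteins OSGIN1 and SESN2. A peak of the transcription factor NRF2 was assigned to a gene when its summit lay inside the gene or within 50 kb of either end. In all, 8 listed peaks met this rule. They formed 5 regions, where a region joins peaks that overlap by at least 1 bp, at 4 of the 10 genes, against 31.5% of all protein-coding genes with a listed peak by the same rule. A region listed in both libraries of a group is called a shared vehicle or a shared CDDO-Im region. NRF2 was immunoprecipitated from HMC3, an established human microglial cell line, and the bound DNA was sequenced (ChIP-seq). The groups were 2 vehicle libraries and 2 libraries of cells given CDDO-Im, a synthetic triterpenoid that activates NRF2, at 30 nM for 4 h. All libraries came from this same line with no other genotype or agent named, groups were taken from the sample titles because the treatment text is shared by every sample, and the 2 input samples were not analysed here. Peak lists hold no expression values, so the microglial identity of the line was not checked against markers.

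NRF2 is held at a low level by its partner KEAP1 until oxidants or electrophiles such as CDDO-Im modify KEAP1. It then enters the nucleus, pairs with a small MAF protein and binds antioxidant response elements. In the pathway described here, thioredoxin reductases use NADPH to reduce thioredoxin, thioredoxin reduces most peroxiredoxins, and peroxiredoxins remove hydrogen peroxide. TXNRD1, TXN, SRXN1 and PRDX1 are textbook NRF2 targets.

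Of the 8 genes with a start site in the RefSeq start-site table, TXNRD1 alone had listed NRF2 peaks over one. The sequences before its 2 starts are shown because peaks covered the inner start and not the outer one. RefSeq (GRCh38.p14) gives TXNRD1 an outer start at the gene's lower end and an inner start farther in, both on the plus strand. The 250 bases before each start are printed 5′ to 3′, with capitals marking TGACNNNGC, the core of the antioxidant response element, as read on either strand. OSGIN1 is added as a gene with no listed peak nearby, with capitals marking TGACTCA, the AP-1 site (TGAGTCA on the other strand). Of those 8 genes, OSGIN1 alone held the AP-1 site in the stretches searched. TXNRD2, SRXN1, TXNIP and SESN2, also without a listed peak nearby, held neither motif there. A TGACTCA followed directly by GC would match both motifs.
TXNRD1 inner start, chr12:104286782-104287031, plus strand: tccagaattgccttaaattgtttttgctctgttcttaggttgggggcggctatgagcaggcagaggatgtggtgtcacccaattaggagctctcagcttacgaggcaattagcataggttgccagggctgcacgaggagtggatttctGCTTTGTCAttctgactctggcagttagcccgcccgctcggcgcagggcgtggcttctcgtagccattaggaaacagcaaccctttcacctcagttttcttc
TXNRD1 outer start, chr12:104215529-104215778, plus strand: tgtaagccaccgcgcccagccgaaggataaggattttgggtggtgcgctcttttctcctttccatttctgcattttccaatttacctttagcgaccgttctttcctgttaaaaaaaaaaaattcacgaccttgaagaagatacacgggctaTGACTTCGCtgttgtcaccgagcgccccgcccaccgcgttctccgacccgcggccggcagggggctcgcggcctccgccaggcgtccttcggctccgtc
OSGIN1 start, chr16:83952990-83953239, plus strand: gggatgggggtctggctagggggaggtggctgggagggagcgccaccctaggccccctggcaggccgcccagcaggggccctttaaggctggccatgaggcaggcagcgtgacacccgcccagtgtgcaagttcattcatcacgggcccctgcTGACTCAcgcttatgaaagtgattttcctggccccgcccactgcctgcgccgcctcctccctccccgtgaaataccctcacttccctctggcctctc

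The inner TXNRD1 start held 1 match, GCTTTGTCA, which reads TGACAAAGC on the other strand, at positions 104286930 to 104286938, or 102 to 94 bases before the start. The outer start held TGACTTCGC, 99 to 91 bases before the start. A further match there crosses the start itself (104215771 to 104215779) and is printed in lower case because its last base lies beyond the printed stretch. Searched over 250 bases before to 50 after each start, 8 of the 10 genes had a total of 12 windows, and TXNRD1 held both of the 2 windows with TGACNNNGC. Over all such windows on chromosomes 1 to 22 and X, 13.4% (4674 of 34961) held TGACNNNGC and 4.92% (1720) held TGACTCA or TGAGTCA. PRDX1 and PRDX6 had no entry. A match describes letters only, and a window without one says nothing of NRF2 elsewhere at the gene.

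At the inner TXNRD1 start, both CDDO-Im libraries listed a peak and neither vehicle library did (chromosome 12, 104286800 to 104287088). TXNRD1 is the cytosolic selenoprotein that reduces thioredoxin. The summits lay 65 bp before the start in CDDO-Im 1 and 82 bp before it in CDDO-Im 2, and 33 and 16 bp from the middle of the TGACNNNGC match. The CDDO-Im 1 peak had 16 recovered tags, that is, the pile-up of sequenced fragments at the summit worked back from the deposited fold enrichment and p, with a fold enrichment of 12.3, a −log10 p of 21.8 and a −log10 q of 17.4. In CDDO-Im 2 the peak had 17 tags, a fold enrichment of 6.48, a −log10 p of 12.0 and a −log10 q of 8.31.

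The fold enrichment and the tags thus gave different pictures of this site. Fold enrichment divides by a local background, which was 0.383 tags in CDDO-Im 1 and 1.78 tags in CDDO-Im 2, or 1.16 and 4.84 times the lowest background of the library. Divided by that lowest background in place of the local one, the site had 48.2 in CDDO-Im 1 and 46.3 in CDDO-Im 2. By tags the libraries were nearly level, and by fold enrichment CDDO-Im 1 was the higher.

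A second TXNRD1 region lay inside the gene near the outer start (chromosome 12, 104219368 to 104219681), again with a peak in each CDDO-Im library and none under vehicle. Its summits were 3717 and 3745 bp past the outer start, so the peaks did not cover the window with the matches printed above. CDDO-Im 1 had 16 tags (fold enrichment 9.62, −log10 p 16.8, −log10 q 12.6). CDDO-Im 2 had 22 tags (fold enrichment 14.9, −log10 p 28.7, −log10 q 24.4). Here CDDO-Im 2 was the higher of the libraries by each of these measures.

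**Figure D1:**
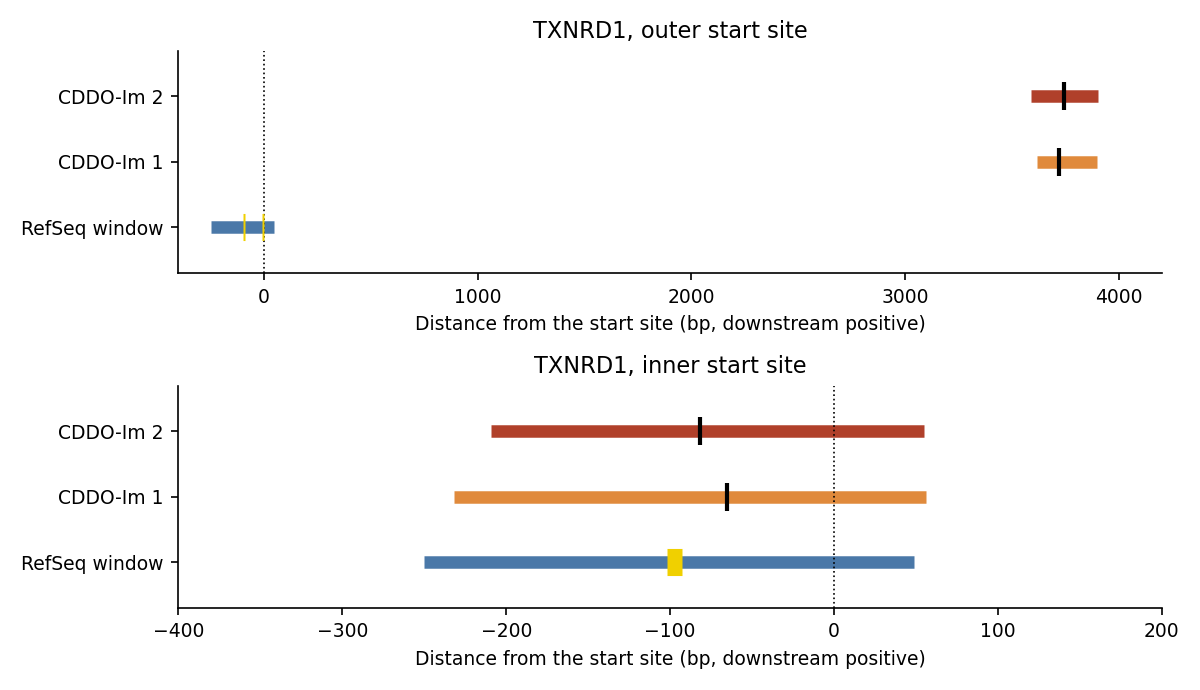
Peaks at the outer (top) and inner (bottom) TXNRD1 start site. The x axis is the distance from the start in bp, coloured bars are the listed peaks of each CDDO-Im library with the summit as a black tick, the blue bar is the RefSeq window of 250 bases before to 50 after the start, and yellow marks TGACNNNGC; the inner summits lie 65 and 82 bp before the start, and those near the outer start 3717 and 3745 bp past it.

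Neither feature of TXNRD1 was common. A summit of both CDDO-Im libraries fell in a start-site window of 10 of 15811 protein-coding genes with such a window (0.0632%). Counted by window, non-coding genes included, it was 23 of 34961 (0.0658%), and 18 of those 23 windows (78.3%) held TGACNNNGC. They rested on 21 separate regions, of which 17 had the motif in such a window. Having 2 or more regions inside the gene that were shared CDDO-Im regions without a vehicle peak was seen for 30 of 19970 genes (0.150%). These properties were picked after the TXNRD1 values were seen, and TXNRD1, at 134529 bp, is the longest of the 10 genes. The part of gene length was not tested.

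TXNRD3, a reductase that combines a thioredoxin reductase with a glutaredoxin domain, had the region with the most tags of the 10 genes in both CDDO-Im libraries (chromosome 3, 126607110 to 126607502), and no vehicle peak. CDDO-Im 1 had 17 tags (fold enrichment 12.2, −log10 p 21.8, −log10 q 17.4) and CDDO-Im 2 had 36 (fold enrichment 21.0, −log10 p 47.8, −log10 q 43.1). Over the lowest background these were 51.3 and 98.0, a ratio of 1.91 between the CDDO-Im libraries. Among the 2116 shared CDDO-Im regions outside dense megabases, the median of this ratio was 1.30 with quartiles of 1.01 and 1.64. Dense megabases are the 77 megabases with more than 20 regions each, and none of the 8 peaks lay in one.

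The TXNRD3 region sat at the far end of the gene from its start. The summits were 241 and 263 bp inside the lower end and 47833 and 47811 bp past the start, which lies at the upper end. The same summits fell inside the non-coding gene LOC105374090, which overlaps TXNRD3 at this end. The position alone therefore does not assign the region to TXNRD3.

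TXN, thioredoxin itself, had a single peak, in CDDO-Im 2 (chromosome 9, 110256806 to 110257055). Its summit was 390 bp before the start, beyond the RefSeq window of TXN. It had 9 tags (fold enrichment 6.96, −log10 p 10.3, −log10 q 6.71), and 34.7% of the peaks of that list outside dense megabases had fewer. PRDX1, an abundant cytosolic peroxiredoxin, also had a single peak, in CDDO-Im 2 (chromosome 1, 45521897 to 45522121), 900 bp inside the upper end of the gene. It had 13 tags (fold enrichment 9.09, −log10 p 14.9, −log10 q 11.0), above 57.7% of that list. CDDO-Im 1 and both vehicle libraries listed nothing at TXN or PRDX1, so neither site has a replicate.

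**Figure D2:**
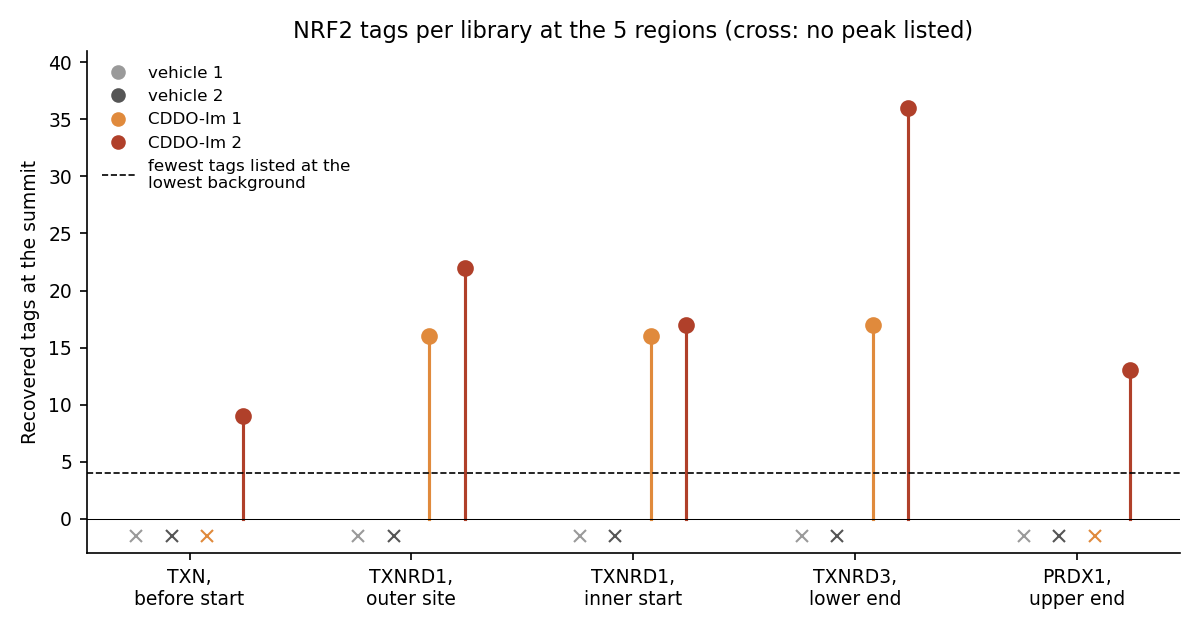
Recovered tags at the summit (y axis) in each library for the 5 regions (x axis); a cross below 0 means that the library lists no peak there, and the dashed line marks the 4 tags from which peaks at the lowest background were listed. The CDDO-Im points run from 9 to 36 tags, and the vehicle libraries have crosses throughout.

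For the remaining 6 genes, TXNRD2, SRXN1, PRDX6, TXNIP, OSGIN1 and SESN2, no library listed a peak within 50 kb. They cover the mitochondrial reductase (TXNRD2), the enzyme that restores over-oxidised peroxiredoxins (SRXN1), a peroxiredoxin that relies on glutathione (PRDX6), the inhibitor of thioredoxin (TXNIP), a growth inhibitor induced by oxidative stress (OSGIN1) and a stress-induced brake on mTORC1 (SESN2). Just outside the 50 kb limit, CDDO-Im 1 listed a peak of 5 tags 54747 bp from SRXN1. PRDX1 had a shared CDDO-Im region 56424 and 56411 bp away, inside TESK2, with 9 and 17 tags. Just inside the limit there was no peak: the assigned summit farthest from its gene was the one 390 bp from TXN.

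**Figure D3:**
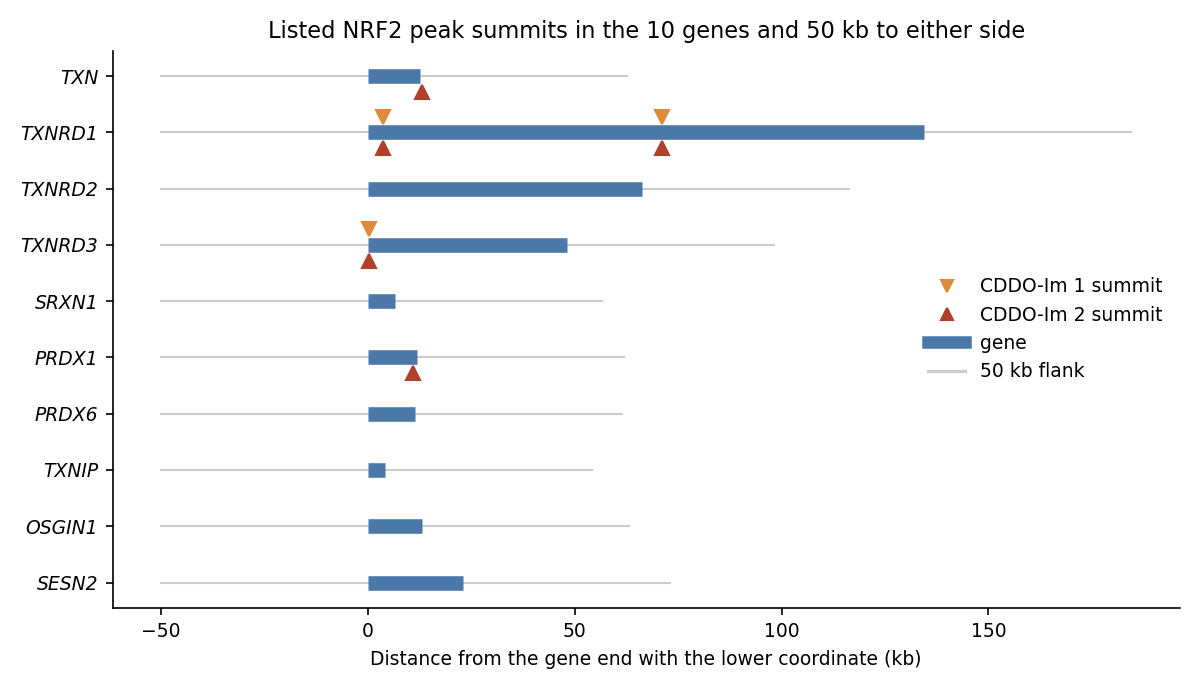
The 10 genes drawn to scale as blue bars with 50 kb to either side in grey; the x axis is the distance in kb from the gene end with the lower coordinate. Triangles are listed summits of CDDO-Im 1 (pointing down) and CDDO-Im 2 (pointing up); all 8 lie inside a gene or 390 bp from it, and 6 genes have none.

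Counted over the 10 genes, peaks in the windows numbered 0 and 0 in vehicle 1 and 2 and 3 and 5 in CDDO-Im 1 and 2. The groups did not overlap. The exact two-sided permutation test on log2(peaks + 1) gave p = 0.333 (n = 2 and 2 libraries), the smallest this design allows. Nothing in the labels says that the libraries of a group came from separate cultures, so their spread may be technical. Peaks near genes at large moved the same way. Per Mb of window over all protein-coding genes, the libraries listed 0.441, 0.496, 1.15 and 1.74 peaks in the same order. For the 10 genes the values were 0, 0, 2.25 and 3.75 per Mb. Outside dense megabases the CDDO-Im lists were the longer, with 3249 and 4795 peaks against 1216 and 1276. Of the whole lists, CDDO-Im 1 was the shortest, at 4024 peaks. The part of list length in the result was not tested.

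The shares of the 10 genes with CDDO-Im rested on counts of 2 to 4 genes, and their difference from protein-coding genes at large was not tested. The genes had also been chosen with earlier results of these data known. A CDDO-Im peak lay within 50 kb of 4 of 10 genes (TXN, TXNRD1, TXNRD3 and PRDX1), against 26.9% of all protein-coding genes. All 4 lacked a vehicle peak in the window. A CDDO-Im peak together with no vehicle peak was seen for 19.5% of all protein-coding genes. A shared CDDO-Im region lay near 2 of 10 (TXNRD1 and TXNRD3), against 11.6%. Counting only shared CDDO-Im regions without a vehicle peak, it was the same 2 genes, against 7.56%. A vehicle peak lay near 0 of 10, against 12.0%. A shared vehicle region lay near 0, against 1.81%, and a region of all 4 libraries near 0, against 1.78%. Taken by itself, CDDO-Im 1 listed a peak near 2 of the 10 (16.4% of all genes) and CDDO-Im 2 near 4 (23.0%), so the count of 2 became 4 when CDDO-Im 1 was left out.

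**Figure D4:**
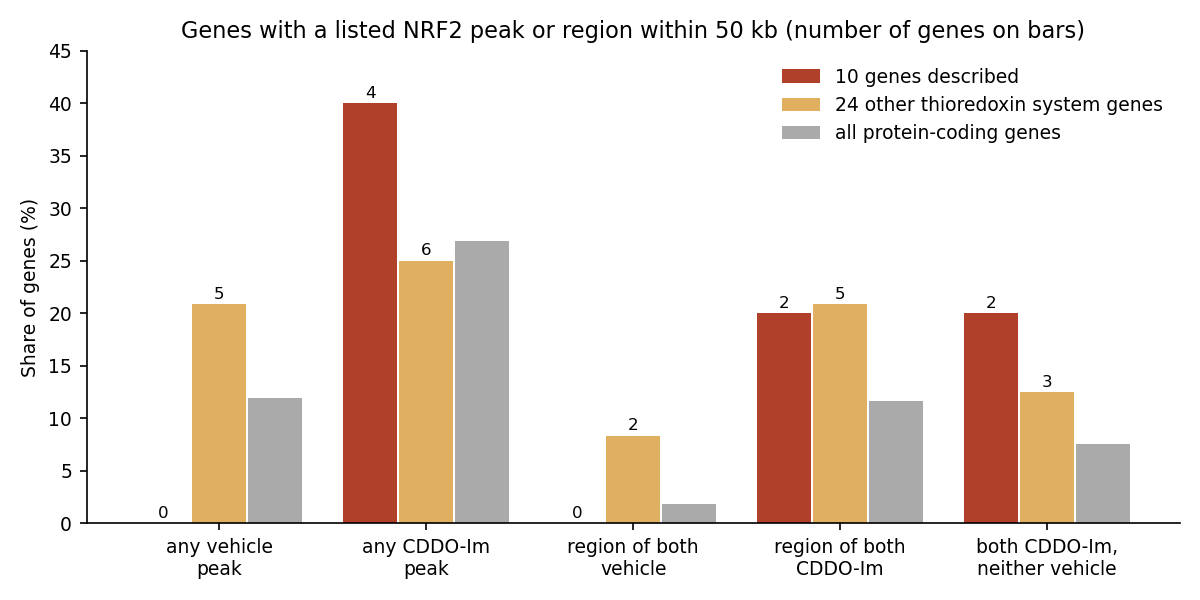
Share of genes (y axis, percent) with a listed peak or region within 50 kb, for the 10 genes, 24 other thioredoxin system genes and all protein-coding genes, with the number of genes above the coloured bars. For any CDDO-Im peak the numbers are 4 of 10 and 6 of 24, against 26.9% of all genes, and for any vehicle peak 0 of 10 and 5 of 24, against 12.0%.

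Absence from the vehicle lists does not measure NRF2 there. Vehicle peaks at the lowest background were listed from 4 tags, and listing also depends on the local background and on the width of the enriched stretch. The CDDO-Im peaks of the 10 genes had 9 to 36 tags. With no vehicle value at these sites, no fold change between the groups can be given for any of them.

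Within the CDDO-Im lists, the peaks at TXNRD1 and TXNRD3 stood in the upper part by tags, those at PRDX1 and TXN near or under the middle, and all below HMOX1 and NQO1. In CDDO-Im 1, both TXNRD1 sites had more tags than 74.0% of the list and TXNRD3 more than 76.7%. In CDDO-Im 2, the outer TXNRD1 region stood above 79.5%, the inner start above 70.4% and TXNRD3 above 91.6%. HMOX1, the heme-degrading enzyme, had 114 and 188 tags in CDDO-Im 1 and 2, and NQO1, a quinone reductase, had 68 and 97. GCLM and GCLC, subunits of the enzyme that starts glutathione synthesis, had 20 and 28 tags and 20 and 18 tags. TXNRD1 thus lay close to GCLC and well under HMOX1. GCLM and GCLC were also listed in vehicle 2, whereas TXNRD1 and TXNRD3 were in neither vehicle list.

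**Figure D5:**
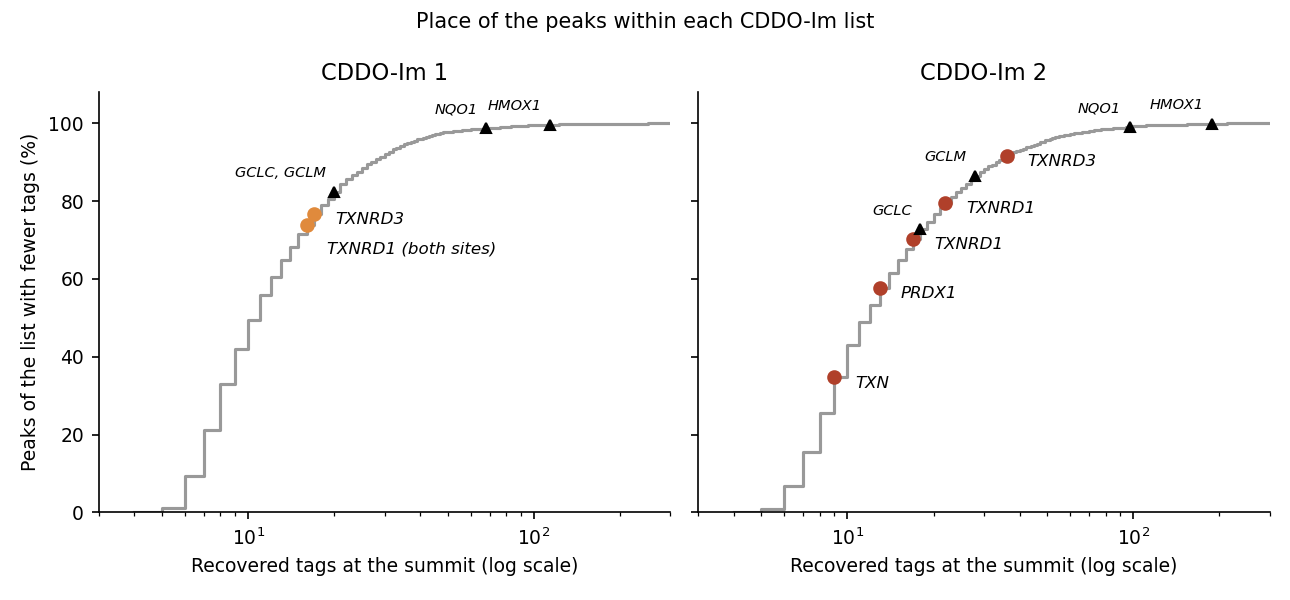
Recovered tags at the summit (x axis, log scale) against the percentage of peaks in the same list, outside dense megabases, with fewer tags (y axis), for CDDO-Im 1 (left) and CDDO-Im 2 (right). The grey line is the whole list, coloured circles are the genes described and black triangles the strongest region of 4 known targets; TXN is the lowest circle at 9 tags and TXNRD3 the highest at 36.

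The other genes of the thioredoxin system were read from a list of 24 that covers further thioredoxins, peroxiredoxins, sestrins, glutaredoxins, methionine sulfoxide reductases and partners. A shared CDDO-Im region lay within 50 kb of 5 of them (20.8%, against 11.6% of all protein-coding genes) and a shared vehicle region near 2 (8.33%, against 1.81%). None of the peroxiredoxins on this list, PRDX2, PRDX3, PRDX4 and PRDX5, and neither SESN1 nor SESN3, had a listed peak within 50 kb in any library.

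GLRX, cytosolic glutaredoxin, had a region 39890 bp from the gene, inside RHOBTB3, where the vehicle libraries had 11 and 13 tags and the CDDO-Im libraries 36 and 47. TXNDC17, a thioredoxin-like disulfide reductase, had a region 7529 bp away, inside KIAA0753, with vehicle tags of 12 and 15 and CDDO-Im tags of 28 and 35. At both sites each CDDO-Im library was above each vehicle library. Over the lowest background the ratio of CDDO-Im to vehicle was 3.10 for GLRX and 2.11 for TXNDC17 (exact permutation p = 0.333 each, two-sided, n = 2 and 2, the smallest possible). Outside dense megabases 230 regions were listed in every library, with a median ratio of 3.21. The share of these 230 in which each CDDO-Im library was above each vehicle library was not counted, so the separation is not particular to GLRX or TXNDC17.

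APEX1, a DNA repair enzyme and redox partner of thioredoxin, had a region 8144 bp away, inside OSGEP, with 8 tags in vehicle 2, none listed in vehicle 1, and 16 and 40 tags with CDDO-Im. Another region 43719 bp from APEX1, outside any gene of the RefSeq table, had 19 and 22 tags and no vehicle peak. MSRA, a methionine sulfoxide reductase that thioredoxin recharges, had a region inside the gene with 14 and 18 tags, and MSRB2, a mitochondrial enzyme of the same kind, had one 42300 bp away, inside LOC107984215, with 6 and 9 tags, both without a vehicle peak. GLRX2 had a peak in CDDO-Im 2 alone (7 tags, inside CDC73), MSRB3 in vehicle 2 alone (5 tags, inside MSRB3) and ARRDC4, a relative of TXNIP, in vehicle 1 alone (7 tags, inside LOC124903585). A shared CDDO-Im region lay inside 1 of the 24 genes (MSRA) and 2 of the 10 described above, against 4.47% of all protein-coding genes. Among genes with such a region within 50 kb, it lay inside 1 of 5 and 2 of 2, against 38.5% (892 of 2316). Differences between these lists were not tested.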

How the data were processed

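The members and gene lists were chosen with earlier results of these data known. The submitters' processing notes name MACS2 2.2.7.1, BWA 0.7.17 and bcl2fastq 2.15.0, and the builds hg38 and GRCm38. How the authors set the control and threshold of peak calling, and treated duplicates, is not stated in any source used here. Positions are on hg38, the human build of the pair. Each deposited list covers 1 library and gives, per peak, a fold enrichment (ratio) over local background, a −log10 p, a −log10 q, and a deposited score, the whole part of 10 times the −log10 q. These are the authors' values and served only to describe and rank peaks within a list. There were 4227, 7448, 4024 and 12433 listed peaks (vehicle 1, vehicle 2, CDDO-Im 1, CDDO-Im 2), of which 1216, 1276, 3249 and 4795 lay on chromosomes 1 to 22 and X outside dense megabases.

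Tags and background were solved from each peak's fold, (tags + 1)/(background + 1), and its p, the Poisson probability of more than that many tags. In every library 100% of peaks gave a whole number of tags, within 0.001 plus 0.0002 of the −log10 p, and the number was unique for 97.7% to 99.4%. It was unique for all 8 peaks of the genes described. The lowest recovered background (0.316, 0.315, 0.332 and 0.367 tags, in the same order) stood for depth, because the lists carry no library totals; it also moves with the fragment length set in peak calling. Genes and start sites were those of RefSeq on GRCh38.p14. The text names all 10 genes, each gene on the list of 24 with a listed peak, the genes that hold a region, and 4 known targets; the rule covered only those of the 24 with a shared CDDO-Im region, and GLRX2, MSRB3 and ARRDC4 were added after their values were seen. Shares over all genes use the same distance rule. Libraries were compared by exact permutation. Tag recovery and gene calls were tested on simulated data. Python 3.11.15, pandas 2.3.3 and scipy 1.17.1 were used. Alternatives in distance, threshold, overlap, left-out library and replicate pairing were tried.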

Additional observations from a re-analysis of the deposited data

How the results depend on the processing

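Of the 10 genes, 2 had a shared CDDO-Im region, 2 had such a region without a vehicle peak, and 0 a shared vehicle region. These counts did not change with a distance of 10 kb, inside the gene only, or without dense megabases (chosen after seeing the data). The shared CDDO-Im regions lay inside the genes and outside dense megabases, so these settings could not change the counts. With no vehicle peak in the windows, the count of 0 was fixed in every setting run. A distance above 50 kb was not tried. The counts also held with an overlap of at least 50% of the shorter peak, and with a −log10 q of at least 5 or 10. At 10, TXNRD1 stayed in the count by its outer region alone, because the CDDO-Im 2 peak at the inner start (8.31) was dropped. Leaving out each library in turn, where the other library stands for its group, gave 2 to 4 genes for the first and also 2 to 4 for the second count, with 4 without CDDO-Im 1, and 0 for the third. Of the 24 other genes, 5 had a shared CDDO-Im region within 50 kb, 3 within 10 kb and 1 inside the gene, and leaving out a library gave 5 to 6. With a −log10 q of at least 5 it was 4, and with at least 10 also 4. The difference in log2(peaks + 1) was 2.29, between 2.00 and 2.58 with a library left out, and positive in every setting run. Its sign was fixed, because both vehicle libraries had 0 peaks in the windows and no setting added peaks. The replicate numbers are not said to pair the libraries, and the correlation of same-numbered deviations over 230 regions listed in every library was -0.04. With the replicate block the difference was 2.29 and the exact sign-flip p 0.5, the smallest that 2 pairs allow. No region of the 10 genes was listed in all 4 libraries, so the planned comparison of tags between groups and its depth alternatives gave no value. Sites with few tags can go unlisted, and with 2 libraries a group no permutation test could reach 0.05.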

Other observations

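Beyond 50 kb, SRXN1, OSGIN1 and TXNRD2 had as their nearest shared CDDO-Im region one that was listed in all 4 libraries. The nearest shared CDDO-Im region to SRXN1 (chromosome 20, 444753 to 445335) lay 201665 bp away, inside TBC1D20, where vehicle 1 and 2 had 8 and 12 tags and CDDO-Im 1 and 2 had 34 and 58. Over the lowest background the ratio of CDDO-Im to vehicle was 4.09 (exact permutation p = 0.333, two-sided, n = 2 and 2, the smallest possible). For OSGIN1 the nearest such region (chromosome 16, 83835943 to 83836321) lay 117077 bp away, outside any gene of the RefSeq table, with vehicle tags of 11 and 10 and CDDO-Im tags of 26 and 35, a ratio of 2.60 (exact permutation p = 0.333, two-sided, n = 2 and 2). At both sites, and at the region nearest TXNRD2 given below, each CDDO-Im library was above each vehicle library. Over the 230 regions listed in every library outside dense megabases, the median ratio was 3.21. The share of them that separated in this way was not counted. At these distances the lists do not tie a region to a gene.

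For SESN2, TXNIP and PRDX6, also without a listed peak within 50 kb, the nearest shared CDDO-Im region lay 189118 bp from SESN2 (inside PHACTR4, 10 and 12 tags), 316072 bp from TXNIP (inside PDZK1, 9 and 6 tags, with 4 in vehicle 2) and 496657 bp from PRDX6 (17 and 20 tags). For TXNRD2 it lay 1167040 bp away, inside BCRP2, with vehicle tags of 8 and 21 and CDDO-Im tags of 30 and 60, a ratio of 2.95 over the lowest background (exact permutation p = 0.333, two-sided, n = 2 and 2). TXN, whose own peak was in CDDO-Im 2 alone, had its nearest such region 1145411 bp away, inside TMEM245, with 9 tags in vehicle 1, no peak in vehicle 2, and 47 and 66 tags with CDDO-Im. TXNRD3 had a further shared CDDO-Im region 66298 and 66329 bp away, inside CHST13 and C3orf22, with 19 and 24 tags.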
